A study of Mus musculus with 5 samples.

Results

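The 7 genes described here, Gsc, Prrx1, Prrx2, Alx4, Alx1, Pitx1 and Shox2, encode paired-type homeobox transcription factors and were taken by symbol from a table of 23441 genes. All 7 were found and all passed the filter on low counts, Shox2 through its control libraries alone. The tissue was the mandibular part of the first pharyngeal arch, the rudiment of the lower jaw, from mouse embryos at embryonic day 10.5. The 2 dCKO libraries carried Wnt1Cre with floxed alleles of Yap and Taz (Wnt1Cre; Yapf/f, Tazf/f) on a C57BL/6J x CBA/J; 129SvEv background. The 3 control libraries carried the same floxed alleles (Yapf/f, Tazf/f), with no Cre named, on a 129SvEv background, so genotype, Cre and strain background cannot be told apart. Wnt1Cre is active in the premigratory neural crest, so the epithelium, core mesoderm, vessels and blood of the arch lie outside the lineage it targets.

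Homeodomain proteins of the paired type bind short AT-rich DNA sites, often as pairs of proteins, and set the position and fate of mesenchyme in the embryonic head. In the mouse, Prrx1 and Prrx2 act together in growth of the lower jaw, Gsc acts in the arch mesenchyme downstream of endothelin signalling, and Alx genes are best known from the frontonasal and distal mesenchyme. Pitx1 is expressed in the mandibular arch and the hindlimb, and Shox2 is known from the palate, the limb and the pacemaker region of the heart.

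Of the 7 genes, Gsc and Prrx1 fell and Alx4 rose in dCKO tissue. Prrx2, Alx1, Pitx1 and Shox2 did not pass the test. The test was edgeR's quasi-likelihood test with Benjamini-Hochberg adjustment over the 12710 genes tested and a threshold of 0.05, which called 6.42% of all tested genes, 1.42% as lower and the remaining 636 genes as higher. Called members were thus 3 of 7, or 42.9%, a set chosen with earlier results of these data known. The median log2 fold change was −0.19 over the 7 members and −0.00062 over all tested genes. The member median is the value of Prrx2, which was not called. It also counts Shox2, whose direction is not independent of the filter, so it is not read as a shift of the members. The groups did not overlap for 4 of the 7 members (Gsc, Prrx1, Alx4 and Shox2), and for 37.6% of all tested genes. For Shox2 this is not independent of the filter on low counts, which it passed only through its control libraries. Levels below are CPM (counts scaled to a common library size) with TMM factors, and errors of means are SD (n = 2 dCKO and n = 3 control libraries).

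**Figure D1:**
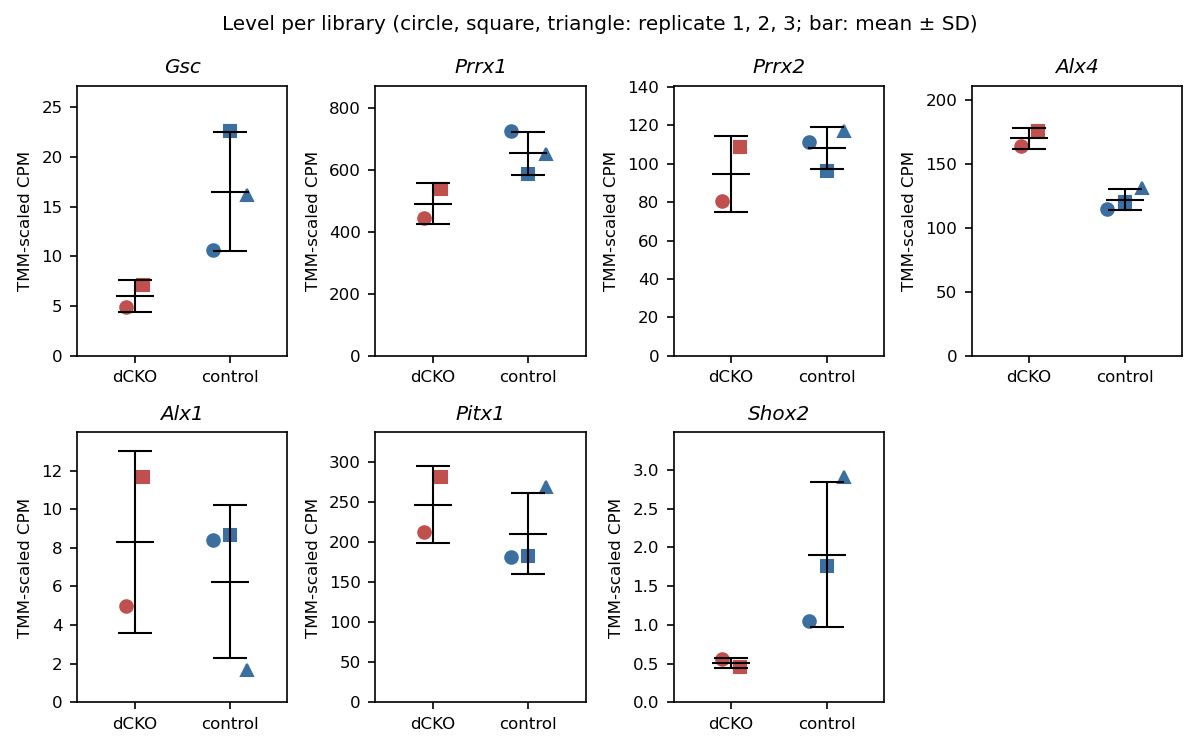
Level of each of the 7 members in every library, in TMM-scaled CPM on a linear axis that starts at 0, dCKO left and control right, with the mean ± SD of each group as a black bar. The dCKO points lie below every control point for Gsc, Prrx1 and Shox2 and above every control point for Alx4.

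Libraries held 11346480 and 13298973 counts in dCKO tissue and 6491137 to 7439419 counts in controls. Yap1 had 172.3 ± 3.30 CPM in dCKO and 433 ± 106.6 CPM in control tissue, and was called lower (edgeR adjusted p = 1.31e-05). The labels do not tie the libraries to separate embryos, and the p-values therefore reflect the spread among these samples alone, which may be technical. Markers of several other cell types differed between the groups. Erythroid markers summed to 55890 to 80120 CPM in dCKO and 3423 to 4435 CPM in control libraries, with 12 of 12 tested genes called higher, and those of megakaryocytes and platelets to 151.8 to 294.4 and 19.7 to 30.0 CPM (10 of 10 called higher). Epithelial markers summed to 656.5 to 688.5 CPM in dCKO and 444.1 to 563.5 CPM in control libraries (3 of 14 called higher). Neural and glial markers summed to 49.4 to 51.2 CPM in dCKO and 31.1 to 39.7 CPM in control libraries. Of these, 1 of 6, Sox10, was called higher, with 59 and 22 counts in dCKO and 0 in each control library. Myeloid markers summed to 25.4 to 40.1 CPM in dCKO and 15.4 to 16.2 CPM in control libraries (1 of 6 called higher), and endothelial markers to 321.9 to 367.3 and 288.4 to 323.5 CPM (1 of 11 called higher). Core mesoderm and muscle markers summed to 112.9 to 121.1 CPM in dCKO and 80.5 to 94.3 CPM in control libraries. Of these, edgeR and DESeq2 called 0 of 8 and limma-voom called Lhx2. An unadjusted edgeR p under 0.05 was seen for 3 of these 8, beside 2738 of 12710 tested genes. The same held for 10 of 14 epithelial, 4 of 6 myeloid and 3 of 6 neural and glial markers. It held for 1 of 11 endothelial and 4 of 18 cranial mesenchyme markers. Cardiac markers summed to 13.2 to 16.9 CPM in dCKO libraries and to 63.2, 13.9 and 15.6 CPM in control replicates 1, 2 and 3. Of these, 1 of 5, Myl2, was called lower by edgeR and none by DESeq2 or limma-voom. Myl2 measured 28.5, 0.676 and 2.90 CPM in control replicates 1, 2 and 3 and 1.39 and 1.07 CPM in the dCKO libraries. Hoxa2, a gene of the second arch and hindbrain that the mandibular arch lacks, had 44 and 41 counts in dCKO and 1, 0 and 0 counts in control libraries, and was the 1 of 2 tested Hox genes called higher. Cranial mesenchyme markers, which define the labelled tissue, were present throughout. They summed to 1528 to 1590 CPM in dCKO and 1602 to 1774 CPM in control libraries. Foxc1 was the 1 of 18 called by edgeR, as lower, and also the 1 called by limma-voom. DESeq2 called Foxc1 and Pdgfra, the latter at an edgeR log2 fold change of −0.35 (edgeR adjusted p = 0.0882). The part of these differences in the results on the 7 genes was not tested. In bulk tissue, fewer cells of a type and less RNA per cell cannot be told apart.

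Gsc, the Goosecoid gene, had the largest change among the called members. It measured 4.90 and 7.12 CPM in the dCKO libraries, against 10.6, 22.6 and 16.2 CPM in control replicates 1, 2 and 3. Each dCKO library lay below every control, although the controls themselves spanned a 2.12-fold range. The means were 6.01 ± 1.57 CPM in dCKO and 16.5 ± 5.98 CPM in control tissue, a log2 fold change of −1.44 (edgeR adjusted p = 0.00336, SE 0.29). These levels rest on 53 and 93 reads in dCKO and 81, 167 and 106 reads in control libraries. Gsc did not pass without dCKO replicate 1 (log2 fold change −1.20, edgeR adjusted p = 0.0943), and passed under the other 14 of 15 alternatives. In the authors' deposited table Gsc stood at a log2 fold change of −1.42 with an adjusted p of 0.275. Levels scaled to the summed cranial mesenchyme markers gave a log2 fold change of −1.31 for Gsc (edgeR adjusted p = 7.05e-05). This scaling put the median log2 fold change of all tested genes at 0.112, and its markers include Foxc1, itself called lower.

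Prrx1 and Prrx2 are close paralogues of the limb and head mesenchyme, and they were set side by side because only Prrx1 passed the test. Prrx1 measured 443.8 and 537.1 CPM in the dCKO libraries, against 725.5, 586.2 and 650.5 CPM in control replicates 1, 2 and 3. The highest dCKO library lay below the lowest control. Its mean was 490.5 ± 66.0 CPM in dCKO and 654.1 ± 69.7 CPM in control tissue, a log2 fold change of −0.42 (edgeR adjusted p = 0.0442, SE 0.12). Prrx2 measured 80.7 and 108.6 CPM in the dCKO libraries, against 111.2, 96.2 and 117.0 CPM in the controls. The dCKO range of Prrx2 reached into that of the controls, and its log2 fold change of −0.19 (SE 0.14) did not pass (edgeR adjusted p = 0.456). In both genes dCKO replicate 1 was the lowest of the 5 libraries.

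The call on Prrx1 was lost under 5 of 15 alternatives. Without dCKO replicate 1 or control replicate 1 its log2 fold change was −0.27 and −0.33 (edgeR adjusted p = 0.433 and 0.261). It was −0.30 when libraries were scaled to the mesenchyme markers (edgeR adjusted p = 0.186), a scaling that moved the median of all tested genes by 0.112 on the log2 scale. With a stricter filter on low counts it was −0.39 (edgeR adjusted p = 0.0638), and with a GC trend removed −0.24 (edgeR adjusted p = 0.226). The authors' deposited table gives Prrx1 a log2 fold change of −0.39 with an adjusted p of 0.315 and Prrx2 one of −0.17 with an adjusted p of 1. Without dCKO replicate 1, Prrx2 stood at a log2 fold change of 0.02 (edgeR adjusted p = 0.981).

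The sequences upstream of Prrx1, Prrx2 and Gsc are shown to set the 2 called lower members beside the uncalled paralogue. Each line gives the 250 bases before the RefSeq transcript start in build GRCm38.p6, 5′ to 3′ on the gene's strand, with capitals marking any match to GGAATG (the core recognised by TEAD factors, the DNA-binding partners of YAP and TAZ), TAATCC (the bicoid-type homeodomain site), TAATNNNATTA (the palindromic paired-type site) or TATAAA (the TATA box), on either strand. The windows are chr1:163313651-163313900 (minus strand) for Prrx1, chr2:30845117-30845366 (plus strand) for Prrx2 and chr12:104473237-104473486 (minus strand) for Gsc.
Prrx1: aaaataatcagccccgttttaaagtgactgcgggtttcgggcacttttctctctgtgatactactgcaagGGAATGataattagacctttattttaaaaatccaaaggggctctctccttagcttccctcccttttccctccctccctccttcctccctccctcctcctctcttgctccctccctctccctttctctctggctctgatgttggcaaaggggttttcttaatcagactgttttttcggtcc
Prrx2: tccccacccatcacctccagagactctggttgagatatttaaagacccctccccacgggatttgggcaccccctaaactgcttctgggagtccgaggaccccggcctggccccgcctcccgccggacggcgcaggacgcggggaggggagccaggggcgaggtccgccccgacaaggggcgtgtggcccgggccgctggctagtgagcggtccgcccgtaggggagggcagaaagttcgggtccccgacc
Gsc: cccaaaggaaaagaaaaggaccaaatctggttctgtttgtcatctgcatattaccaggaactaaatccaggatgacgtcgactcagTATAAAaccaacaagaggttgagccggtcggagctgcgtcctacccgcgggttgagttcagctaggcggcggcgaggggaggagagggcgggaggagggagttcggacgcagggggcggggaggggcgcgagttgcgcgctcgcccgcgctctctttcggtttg

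The Prrx1 window holds 1 match to GGAATG, and 12.6% of 32851 promoter windows of that length hold at least 1. The Gsc window holds 1 TATAAA, as 12.4% of the windows do, and the Prrx2 window holds none of the 4 motifs. TAATCC occurs in 6.25% of all windows and TAATNNNATTA in 0.463%, and neither occurs in these 3 windows. A match describes the letters of the window and not binding. Shox2 was the fourth member with a window in the table.

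Alx4, which acts in mesenchyme of the head and the limb bud, was the called member that rose. It measured 164.6 and 176.0 CPM in the dCKO libraries, against 115.2, 120.5 and 131.1 CPM in the controls. Both dCKO libraries lay above every control, and the spread inside each group was small. The means were 170.3 ± 8.09 CPM in dCKO and 122.3 ± 8.07 CPM in control tissue, a log2 fold change of 0.48 (edgeR adjusted p = 0.0189, SE 0.12). Alx4 is also called in the authors' deposited table, with a log2 fold change of 0.504 and an adjusted p of 0.0154, and it is the one member called there. The call on Alx4 was lost under 5 of 15 alternatives, 4 of them with a library left out. Without dCKO replicate 1 or 2 its log2 fold change was 0.54 and 0.43. Without control replicate 1 or 2 it was 0.44 and 0.47 (edgeR adjusted p = 0.1 and 0.0828). With a GC trend removed it was 0.32 (edgeR adjusted p = 0.0691). Ext2, which lies on the opposite strand and overlaps Alx4, measured 75.0 ± 2.43 CPM in dCKO and 78.9 ± 8.91 CPM in control tissue (edgeR adjusted p = 0.794, log2 fold change −0.07, SE 0.13).

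Alx1 was low and uneven within both groups. It measured 4.99 and 11.6 CPM in the dCKO libraries, against 8.41, 8.66 and 1.68 CPM in control replicates 1, 2 and 3. The lowest value was a control and the highest a dCKO library, with the other dCKO library between the controls. The log2 fold change of 0.41 (edgeR adjusted p = 0.636, SE 0.43) changed sign without dCKO replicate 2 or control replicate 3, at −0.34 and −0.03 (edgeR adjusted p = 0.823 and 0.967). Control replicate 3 held 11 reads of Alx1, whereas control replicates 1 and 2 held 64 each.

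Pitx1, a factor of the mandibular arch and its oral side, was among the more abundant members. It measured 213.2 and 281.2 CPM in the dCKO libraries, against 181.3, 183.0 and 269.0 CPM in the controls. Control replicate 3 lay between the dCKO libraries, and the other 2 controls lay below both. The log2 fold change was 0.23 (SE 0.16, edgeR adjusted p = 0.433). Without control replicate 3 it was 0.43 and passed the test (edgeR adjusted p = 0.0426). Without dCKO replicate 2 it was 0.02 (edgeR adjusted p = 0.974).

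Shox2 was near the limit of detection in every library. It had 6 and 6 reads in the dCKO libraries, against 8, 13 and 19 reads in the shallower controls, or 0.555 and 0.459 CPM against 1.05, 1.76 and 2.90 CPM. Both dCKO libraries lay below every control, but the log2 fold change of −1.87 (SE 0.64) did not pass (edgeR adjusted p = 0.0911), nor did it under any of the 14 alternatives that gave a value. Because Shox2 passed the filter on low counts only through its control libraries, its direction is not independent of that filter. Rsrc1, on the opposite strand across the Shox2 locus, measured 47.7 ± 0.011 CPM in dCKO and 54.0 ± 6.50 CPM in control tissue (edgeR adjusted p = 0.480, log2 fold change −0.18, SE 0.14). Whether the counting used strand is not known from the labels. Overlap was taken from whole gene spans, so it is not known whether Alx4 and Ext2, or Shox2 and Rsrc1, share counted reads. Any reads shared by overlapping genes cannot be told apart. Alx1, Prrx1 and Pitx1 also overlap other genes, none of them annotated as protein-coding.

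**Figure D2:**
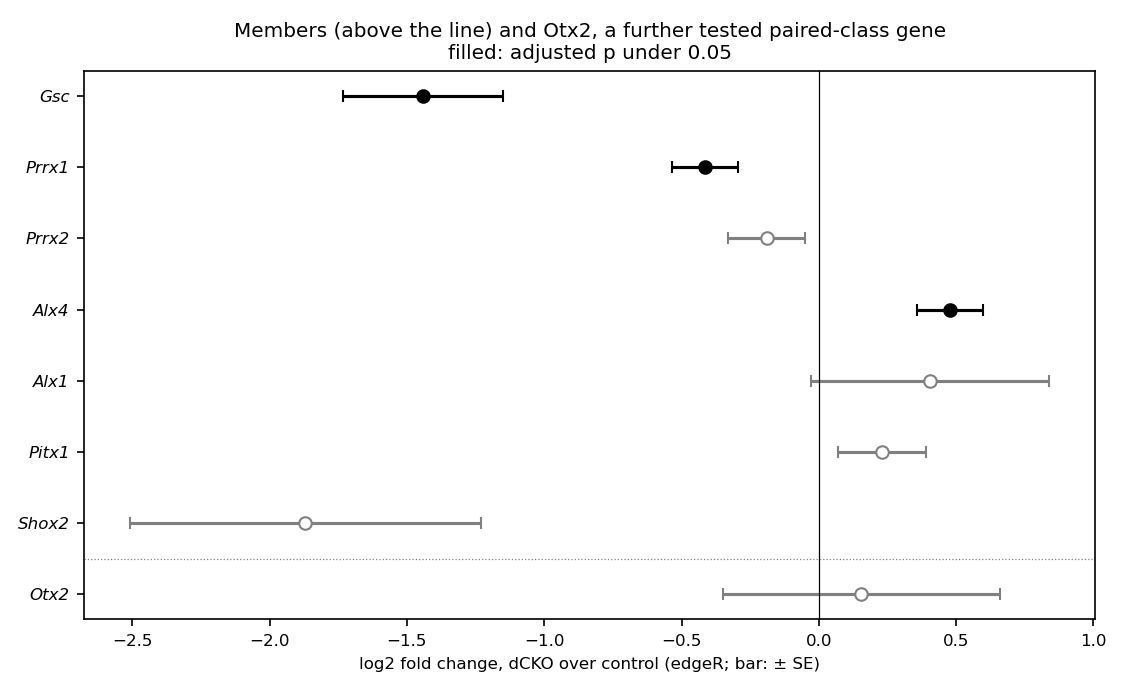
Log2 fold change of dCKO over control (x axis, edgeR, bars ± SE) for the 7 members above the dotted line and Otx2, a further tested paired-type gene, under it. Filled points mark an adjusted p under 0.05: Gsc at −1.44 and Prrx1 at −0.42 lie left of 0, and Alx4 at 0.48 lies right of it.

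The members were also compared as ratios within each library, which do not depend on how libraries were scaled. The ratio of Gsc to Alx4 reads was 0.0298 and 0.0405 in the dCKO libraries, against 0.0924, 0.187 and 0.124 in the controls, a difference of −1.89 between the mean log2 ratios. Both dCKO libraries lay below all controls in this ratio. It reached the smallest p that 10 arrangements allow (two-sided exact permutation test, p = 0.1, 0.2 after Benjamini-Hochberg adjustment over 4 ratios), so this design could not place it under 0.05. Gsc lay below and Alx4 above every control, so the order of the groups in this ratio was fixed by those levels. The Gsc/Alx4 ratio is therefore a description, and its p is not read as a test. The ratio of Prrx2 to Prrx1 was 0.182 and 0.202 in dCKO and 0.153, 0.164 and 0.180 in control libraries, so both dCKO libraries lay above all controls here too, by a small margin. Its mean log2 difference of 0.21 (exact permutation p = 0.2, adjusted 0.267) did not pass, which does not show that the paralogues responded alike. The ratio of Alx4 to Alx1 was 33.0 and 15.1 in dCKO and 13.7, 13.9 and 78.0 in control libraries, with control replicate 3 outermost (mean log2 difference −0.14, exact permutation p = 1, adjusted 1). The ratio of Pitx1 to Shox2 was 385 and 612 in dCKO and 173, 104 and 92.7 in control libraries. It too is given as a description, because Shox2 has few reads and passed the filter only through the control libraries, where it is high. The permutation p of this ratio was counted in the adjustment over 4 ratios but is not read as a test.

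**Figure D3:**
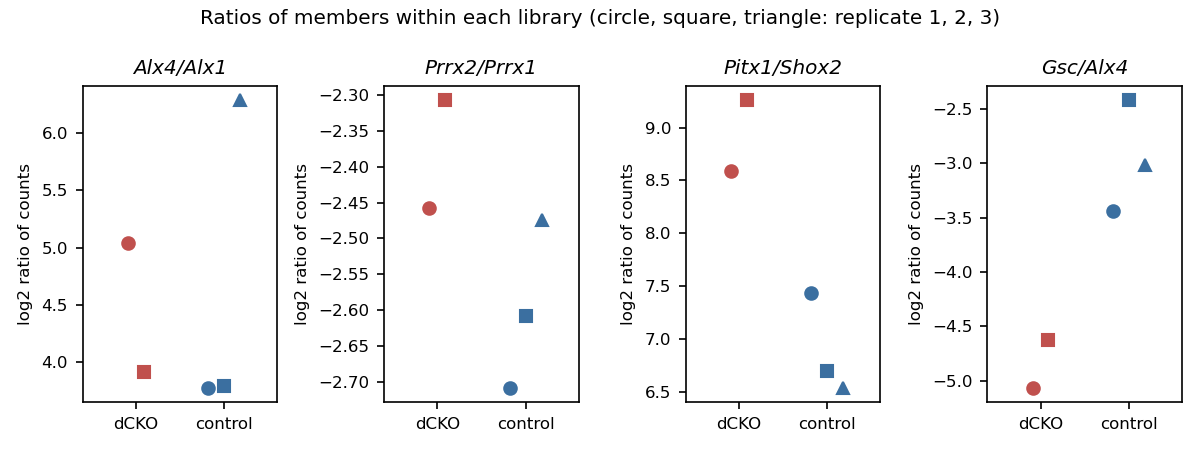
Log2 ratio of read counts of 2 members within the same library (y axis) for 4 ratios, dCKO left and control right, one point a library. The groups do not overlap for Gsc/Alx4 (difference −1.89) or Prrx2/Prrx1 (difference 0.21), and control replicate 3 (triangle) is the highest point for Alx4/Alx1. Pitx1/Shox2 is a description only, since Shox2 passed the filter through the control libraries alone. Gsc/Alx4 is also a description, since Gsc lay below and Alx4 above every control.

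Levels were set per kilobase of exon, so that genes of different length can be compared. Over all exons of a gene, Pitx1 had the highest mean, at 93.1 ± 18.1 CPM per kilobase in dCKO and 79.5 ± 18.9 in control tissue. Prrx2 stood at 48.3 ± 10.1 CPM per kilobase in dCKO and 55.1 ± 5.48 in control tissue, and Prrx1 at 44.3 ± 5.96 and 59.1 ± 6.30. Prrx2 thus had the higher mean in dCKO and Prrx1 in control tissue, but the paralogues did not differ beyond their spread within either group. Pitx1 stood clear of both by more than the SDs in dCKO tissue, and of neither in control tissue. The order changed with the longest transcript in place of all exons, where Pitx1 stood at 100.9 ± 19.6 CPM per kilobase in dCKO and 86.1 ± 20.5 in control tissue and Prrx1 at 75.1 ± 10.1 and 100.2 ± 10.7. Prrx1 then had the highest mean in control tissue, above Prrx2 by more than the SDs, and the SDs of Pitx1 and Prrx1 overlapped in both groups. Alx4 had 24.1 ± 1.15 CPM per kilobase in dCKO and 17.3 ± 1.14 in control tissue, and Gsc had 4.74 ± 1.24 and 13.0 ± 4.71. Alx4 and Gsc thus lay within their SDs of each other in control tissue and apart in dCKO tissue. Alx1, at 1.44 ± 0.817 CPM per kilobase in dCKO and 1.09 ± 0.688 in control tissue, and Shox2, at 0.153 ± 0.0203 and 0.575 ± 0.282, were the lowest, and overlapped within their SDs in control tissue only.

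The members differ in the GC content of their transcripts, and some fold changes shifted when a GC trend was removed. High-GC transcripts among the members were Gsc at 66.6%, Pitx1 at 65.8% and Prrx2 at 63.6%, each above at least 99.2% of tested genes. Alx4 had 54.8%, Shox2 49.8%, Alx1 45.5% and Prrx1 43.6%, beside a median of 49.9% over all tested genes. With the dependence of log2 CPM on GC content removed library by library, Gsc stood at a log2 fold change of −1.73 (edgeR adjusted p = 0.0012) and was the 1 member called. Alx4 was then at 0.32 (edgeR adjusted p = 0.0691), Prrx2 at −0.47 (0.0527) and Pitx1 at −0.04 (0.904).

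**Figure D4:**
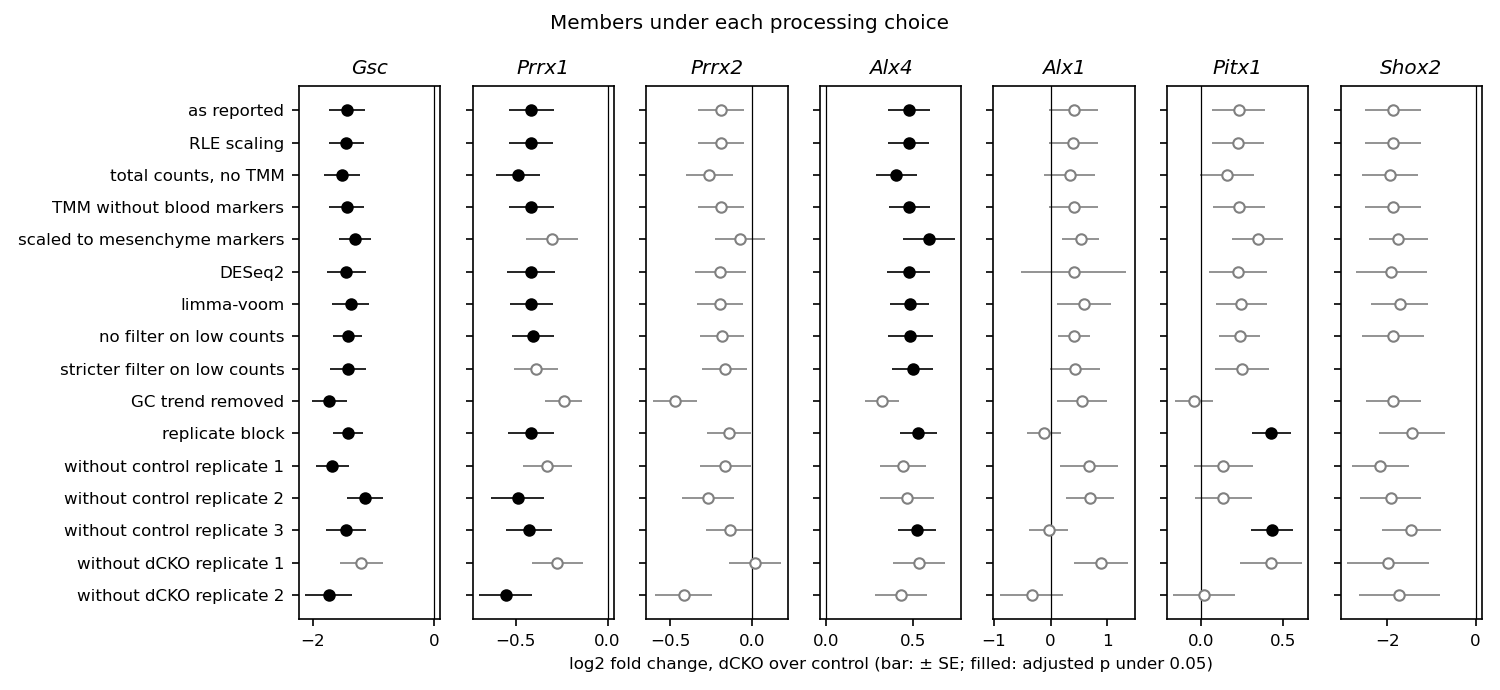
Log2 fold change of dCKO over control (x axis of each panel, bars ± SE) for the 7 members under the reported fit and each alternative (rows). Points are filled where the adjusted p is under 0.05. Gsc is filled in every row except the one without dCKO replicate 1, Shox2 and Prrx2 in none, and Shox2 has no value under the stricter filter.

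Most of 24 further genes of the paired class that were examined were near 0 in this tissue. Of these 24, Otx2 was the 1 that passed the filter on low counts, and 7 had no read in any library. Otx2, known from the anterior head, measured 2.54 ± 0.336 CPM in dCKO and 2.31 ± 1.70 CPM in control tissue (edgeR adjusted p = 0.896). Of the genes under the filter, Otx1 had the highest control mean, at 1.10 ± 0.146 CPM in dCKO and 1.30 ± 0.425 CPM in control tissue. Pax3, a neural crest and dorsal neural tube factor, had 1.39 and 0.996 CPM in the dCKO libraries and 0.526, 0.135 and 0 CPM in the controls, and was not tested.

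Among 27 genes that pattern the mandibular arch, all tested, 3 fell and 24 did not pass, 11.1% called beside 6.42% of all tested genes, with a median log2 fold change of −0.05. Dlx6, a distal-less factor of lower jaw identity, measured 42.2 and 44.8 CPM in dCKO and 69.4, 69.5 and 82.3 CPM in control libraries (log2 fold change −0.76, edgeR adjusted p = 9.28e-04). Its neighbour and partner Dlx5 measured 126.4 ± 7.35 CPM in dCKO and 171.3 ± 9.22 CPM in control tissue (log2 fold change −0.44, edgeR adjusted p = 0.0353). The forkhead gene Foxd1 measured 15.4 ± 3.05 CPM in dCKO and 28.2 ± 7.64 CPM in control tissue (log2 fold change −0.87, edgeR adjusted p = 0.0224). The dCKO libraries lay below every control in all 3. Edn1, the endothelin ligand upstream of Dlx5, Dlx6 and Gsc in the mouse arch, measured 3.56 ± 0.061 CPM in dCKO and 3.72 ± 1.37 CPM in control tissue, and its receptor gene Ednra 33.2 ± 3.36 CPM in dCKO and 40.5 ± 6.19 CPM in control tissue. Neither passed (edgeR adjusted p = 0.951 and 0.314). Without dCKO replicate 1 the list held 1 called gene and without control replicate 3 it held 6. Dlx6 was called under all 15 alternatives, Dlx5 under 10 and Foxd1 under 13. Dlx5 missed the threshold without dCKO replicate 1 or 2 or control replicate 1 or 2 (edgeR adjusted p = 0.309, 0.0806, 0.0755 and 0.102), and with scaling to the mesenchyme markers (log2 fold change −0.32, edgeR adjusted p = 0.188). Leaving out dCKO replicate 1 or control replicate 3 did the same for Foxd1 (edgeR adjusted p = 0.285 and 0.0556).

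Control replicate 3 stood apart from the other controls in Alx1 and in Hand1, a bHLH factor gene of the distal arch. Alx1 there was 0.197 times the mean of control replicates 1 and 2, and Hand1, at 70.1 and 84.0 CPM in dCKO and 87.9, 91.6 and 5.50 CPM in control replicates 1, 2 and 3, was 0.0613 times that mean. A drop of at least 4-fold in that library was seen in 66 of 12710 tested genes, or 0.519%. The other members ranged from 0.975 times (Gsc) to 2.07 times (Shox2) the mean of the other controls, and Hand2, the paralogue of Hand1, stood at 0.856 times. Between the dCKO libraries, 6 of 7 members were higher in replicate 2, Alx1 by 2.33-fold and Gsc by 1.45-fold, while 49.5% of all tested genes were. What set these libraries apart was not tested.

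**Figure D5:**
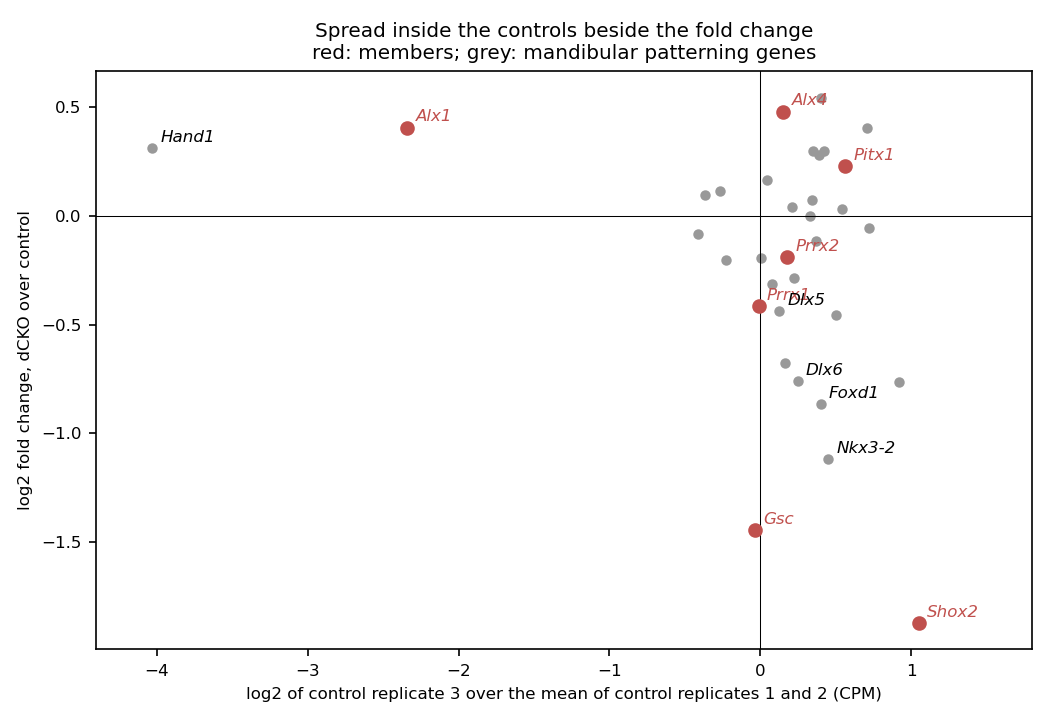
Log2 fold change of dCKO over control (y axis) against the log2 ratio of control replicate 3 to the mean of control replicates 1 and 2 (x axis) for the 7 members (red) and 27 mandibular patterning genes (grey), one point a gene. Alx1 and Hand1 lie far to the left, at −2.34 and −4.03, while Gsc, Prrx1 and Alx4 lie near 0 on that axis.

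The genes whose profiles over the 5 libraries lay nearest to each called member were sought among 10746 genes averaging at least 5 CPM, by Euclidean distance between centred log2 CPM values. Gsc lay nearest to Ildr2, at a distance of 0.367, followed by Foxc1, a forkhead gene of cranial mesenchyme, at 0.496 and the targeted gene Wwtr1, which encodes TAZ, at 0.526. Foxc1 measured 10.5 and 14.8 CPM in dCKO and 28.8, 39.1 and 40.5 CPM in control libraries, and Wwtr1 22.7 and 22.8 CPM in dCKO and 38.4, 65.1 and 66.2 CPM in control libraries. In all 3 neighbours, as in Gsc, control replicate 1 was the lowest control and still above both dCKO libraries. Prrx1 lay nearest to the unconventional myosin gene Myo5a (0.0498), then Msl3l2 (0.0633) and Fam216a (0.0719), none of which was called. Alx4 lay nearest to Sbno2 (0.0761), Cotl1 (0.0766) and Skiv2l (0.0963), all called higher. These distances describe 5 libraries of 2 groups. The neighbours were chosen on these same values, so a library order or direction shared with the member follows from that choice.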

How the data were processed

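Poly(A) RNA was turned into libraries by the Ion Total RNA-Seq v2 protocol, per the labels' protocols. The authors deposited raw read counts per gene symbol for 5 libraries. HTSeq 0.5.4p3, DESeq 1.16.0 and mm9 are named in the submitters' processing notes. The aligner was not given in the sources used here, nor was the counting mode. A second deposited table holds the authors' comparison, with a signal per gene and group (mean normalized counts), its ratio (fold change), log2 fold change, p-value and adjusted p-value. Count columns headed WT were matched to the samples titled control by replicate number, and 27 rows with symbols turned into dates are not named.

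Counts were analysed in R 4.3.3 with edgeR 4.0.16 (filterByExpr with minimum count 10 and minimum total 15, TMM, glmQLFit and glmQLFTest, two-sided), leaving 12710 genes. The SE was taken as the size of the log2 fold change divided by the root of F. The scripts were tested on simulated data. No libraries were duplicates: within a group, chi-square per gene between any pair was 4.28 to 13.4. Exon lengths, transcript GC content and overlapping genes came from GENCODE M21 (GRCm38), matched by symbol, and promoter windows from RefSeq (GRCm38.p6), which held 4 of the 7 members. No coordinates of mm9 were used. Alternatives used RLE or total-count scaling, TMM without blood markers, scaling to mesenchyme markers, DESeq2 1.42.0, limma-voom (limma 3.58.1), other filters, removal of a GC trend (loess, span 0.5), a replicate block and single libraries left out, in which case a lone dCKO library was taken to vary like the controls.

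Genes named were the 7 members, Yap1 as the check of a targeted gene, called genes of the class, patterning and mesenchyme lists, abundant class genes, and the 3 nearest profiles of each called member. Ext2, Rsrc1, Hand1, Hand2, Edn1, Ednra, Hoxa2, Sox10, Myl2, Lhx2, Pdgfra, Otx1 and Pax3 were named after their values were seen. The members and lists were chosen with earlier results of these data known. Values of a few related genes are not reported here.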

Additional observations from a re-analysis of the deposited data

How the results depend on the processing

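Of the 7 members, 3 were called as reported, 1 after removal of the GC trend, and 0 to 4 with single libraries left out (0 without dCKO replicate 1). The other alternatives without a left-out library gave 2 to 4. Direction changed for Alx1 under the replicate block (log2 fold change −0.12) and without dCKO replicate 2 or control replicate 3 (−0.34 and −0.03, in a range of −0.34 to 0.89 with single libraries left out). It also changed for Prrx2 without dCKO replicate 1 (0.018, in a range of −0.42 to 0.018) and for Pitx1 after removal of the GC trend (−0.041). Gsc, Prrx1, Alx4 and Shox2 kept theirs under every alternative that gave a value, though the direction of Shox2 is not independent of the filter. Patterning genes called were 3 as reported, 5 with no filter on low counts, 7 under the replicate block and 1 to 6 with single libraries left out. Over all genes, 636 were higher and 180 lower. These were 1128 and 79 with scaling to mesenchyme markers and 1200 and 921 under the replicate block, with 469 lower by total counts and 305 lower with no filter. With single libraries left out, 403 to 950 were higher and 39 to 687 lower. Scaling by total counts gave 531 higher genes and removal of the GC trend 561 higher and 167 lower. The replicate numbers are not said to pair libraries (correlation of deviations 0.0836 and −0.0042 for replicates 1 and 2), and under the block Pitx1 passed at a log2 fold change of 0.43 (edgeR adjusted p = 0.0171). By longest transcript, levels per kilobase in dCKO and control tissue were 75.1 and 100.2 for Prrx1, 65.7 and 75.0 for Prrx2 and 3.09 and 2.32 for Alx1. The 4 ratios moved by less than their SD with 0.5 reads added or any library left out. Ranges were −2.13 to −1.62 for Gsc/Alx4, 0.14 to 0.29 for Prrx2/Prrx1 and −0.70 to 0.69 for Alx4/Alx1. For Pitx1/Shox2, given like Gsc/Alx4 as a description only, the range was 1.70 to 2.37. The causes of these shifts were not tested. Shox2 rests on 6 to 19 reads a library, which limits its precision.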
